A study of Mus musculus with 4 samples.

Results

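Genes whose transcripts stood strongly lower after 4 h of lipopolysaccharide (LPS) in cultured mouse SVEC endothelial cells numbered 147 of 11138 genes measured. They were selected on the 4 h arrays themselves: the mean log2 ratio of LPS over control had to be at most -2, a 4-fold lower level, and each of the 2 arrays had to lie at most at -1. Of all genes, 150 (1.35%) met these bounds. Proteasome, interleukin, tumour necrosis factor and integrin symbols and Cdh5 were set aside by name, which removed Cdh5 (-3.47), Tnfsf11 (-3.39) and Psmb6 (-2.86). The 4 h values of the 147 genes are therefore a description of what was chosen and carry no test, while the 24 h arrays took no part in the choice.

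SVEC is an established line of mouse endothelial cells, the cells that line vessels. The groups were LPS-treated against control cultures at 4 h and at 24 h, at 50 ng/ml on the 3 arrays whose labels give the dose, with no genetic alteration named. Amplified RNA of treated and control cells was hybridised together on each 2-colour long-oligonucleotide array, with LPS in Cy5 on the first array of a time and in Cy3 on the second. Both arrays of a time were treated as a dye exchange of 1 pair of RNAs, which the labels do not state outright, so each time counts as 1 replicate, no p-value can be given, and an SD is the spread between 2 arrays and not between cultures. All signed values have LPS over control, a direction that is likely from the dyes in the labels but is not stated for the deposited ratios. Levels of a cell type's markers cannot be read from ratios, so the endothelial label was checked by ratio alone, with a 2-fold rule that asks for a mean of at least 2-fold and at least 1.5-fold on each array. By this rule 5.77% of all genes were lower at 4 h and 8.74% higher. The 2-fold counts within gene families below are to be read beside these shares, and in small families they say little. Of 24 listed abundant transcripts, 16 were higher at 4 h and 0 lower, with a median of 2.06. How far such a shift adds to the higher genes named below was not tested. Of 13 listed and measured endothelial markers none passed the 2-fold rule at either time, and their medians were -0.01 and -0.06. Among them Sox18 had a 24 h mean of 1.21 but arrays at 0.50 and 1.92. The list does not hold Cdh5, the cadherin of endothelial junctions, which lay far lower at 4 h, at -4.97 and -1.98, and at -0.17 and 0.05 at 24 h. Of 9 leukocyte markers, 0 were past the rule at 4 h and 1 at 24 h (higher); of 11 mural and fibroblast markers, 1 was lower and 5 were higher at 4 h and 1 was higher at 24 h; of 7 epithelial markers, 1 was lower at 4 h and none passed at 24 h.

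LPS, a component of the outer membrane of Gram-negative bacteria, is sensed by the receptor Tlr4. In endothelial cells the signal runs through adaptor proteins to NF-kB and to mitogen-activated protein kinases, and it is known for switching on adhesion molecules, chemokines and interferon-induced genes. The genes described here stand at the other end of the ratios. A lower ratio can come from less transcription or faster decay of a transcript, and in RNA from a whole culture, fewer cells that carry it and less of it per cell cannot be told apart.

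The 147 genes had a median 4 h log2 ratio of -2.498, with quartiles at -3.44 and -2.19. On the first array the median was -2.71 and the genes ran from -8.39 to -1.11. The reversed array had a median of -2.499 and a range from -5.73 to -1.0. Of the 147, 17 had a mean at or below -4, 35 lay between -4 and -3, and 95 lay above -3. The bound cut through a continuous series of values. Just inside it were Lce1c, Aup1, Fam98c and Nox4, each at -2.01, and just outside were Lyst and Fgr at -1.99, Vegfa at -1.97 and Kcnk5 at -1.96. The mirrored rule kept 353 genes that were strongly higher. With the reversed array left unturned, so that the ratios follow the dye instead of the treatment, the same rule kept 19 genes.

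**Figure D1:**
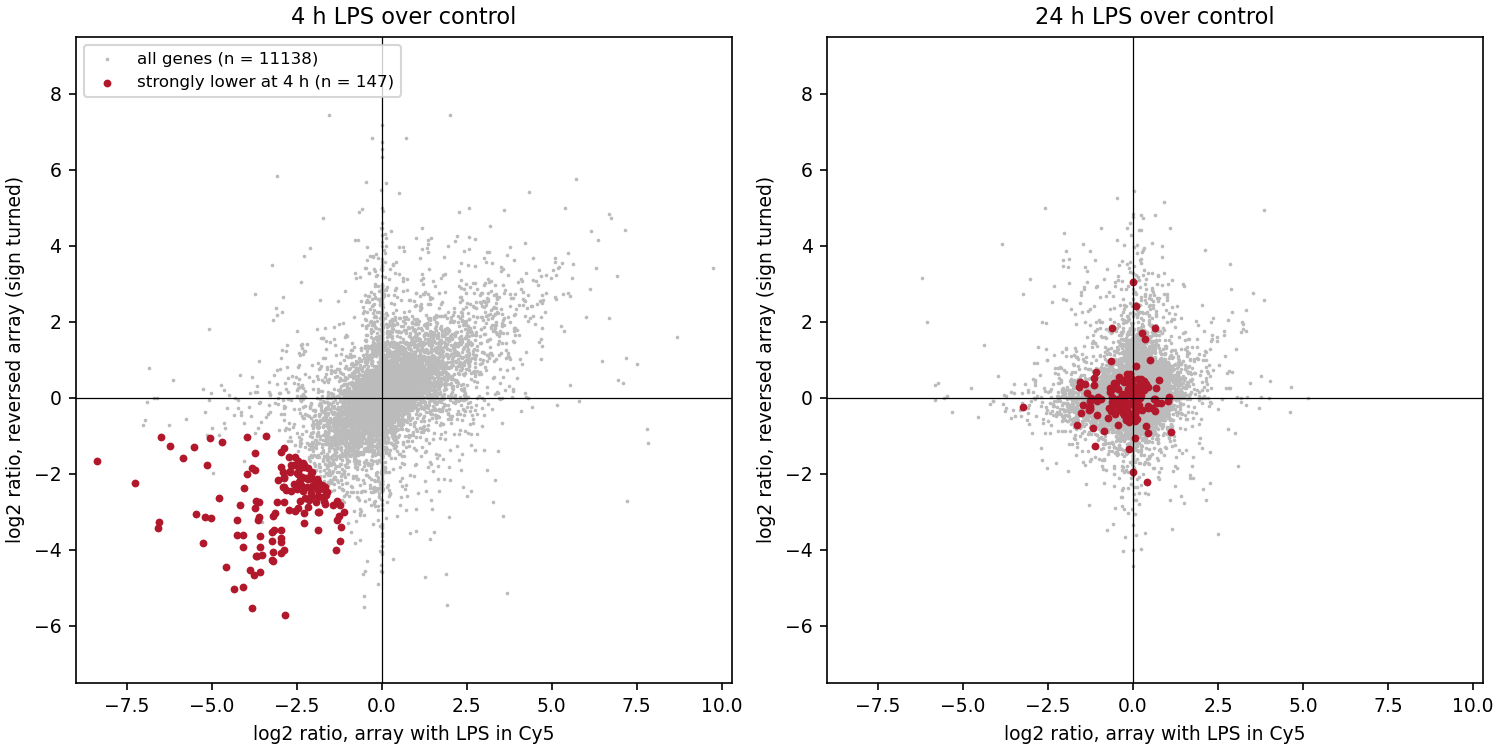
Log2 ratios of LPS over control at 4 h (left) and 24 h (right); the horizontal axis is the array with LPS in Cy5, the vertical axis the dye-reversed array with its sign turned, grey points are all 11138 genes and red points the 147 genes chosen at 4 h. The red points fill the lower left corner at 4 h because they were chosen there, and at 24 h they sit around 0, with a median of -0.14.

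The genes with the lowest means carried widely different functions. Med26, a subunit of the Mediator complex that links transcription factors to RNA polymerase II, lay at -8.39 and -1.66 (mean -5.02 ± 4.76, SD of 2 arrays). Ldhd, the mitochondrial dehydrogenase of D-lactate, lay at -6.59 and -3.43 (-5.01 ± 2.24). Ndel1, which regulates the microtubule motor dynein, lay at -6.55 and -3.27 (-4.91 ± 2.32), and Tymp, which splits thymidine to thymine, at -7.27 and -2.25 (-4.76 ± 3.55). In all 4 genes the first array was much lower than the reversed one, so the size of the mean depends on 1 array. The arrays of other leading genes lay closer together. Mark2, a kinase that loosens proteins from microtubules, gave -5.26 and -3.82, Asb3, a substrate adaptor of ubiquitin ligases, -4.09 and -4.97, and Btg4, which brings deadenylase to messenger RNA in egg cells, -4.58 and -4.45. Btg4 was thus 22.9-fold lower with an SD of only 0.10.

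Each oligonucleotide was printed as a pair of neighbouring spots, which shows how far a gene's ratio rests on a single spot. For 123 of the 147 genes every spot was at or below -1 on both 4 h arrays. For 11 the highest spot lay between -1 and 0, and for 13 a spot was at or above 0. Among these 13, the highest spot was 0.41 in Wbp2nl, 0.10 in Sgsm1 and at a ratio of exactly 1 in B3gat3 and Ubr2. A gap of more than 3 log2 units between the spots of a pair occurred in 15.6% of the 154 pairs on the first 4 h array, against 3.99% of the pairs of all genes, and in 5.84% on the reversed array, against 4.71%. Spots at or below -7 were found in 15 of the genes, and all of these lay on the first array. Med26 had spots at -11.48 and -5.29 there and at -1.68 and -1.64 on the reversed array. Tymp had -11.16 and -3.39, then -2.24 and -2.26. Both genes were below -1 on every spot, with 1 spot far below the others. Of the 15 genes, 5 also had a spot above -1, namely Ccdc127, Zfp414, Borcs8, Enho and Atl3, and Ndel1 had 2 spots below -7. Ccdc127, an uncharacterised coiled-coil gene, had 0.55 and -10.61 on the first array, so its spots disagreed in sign, with -3.10 and -3.24 on the reversed array. In Zfp414, a zinc finger gene, 1 spot of the first array stood at a ratio of exactly 1 and the other at -11.03. Whether faint or damaged spots account for these values was not tested, since the table used here holds no intensities.

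**Figure D2:**
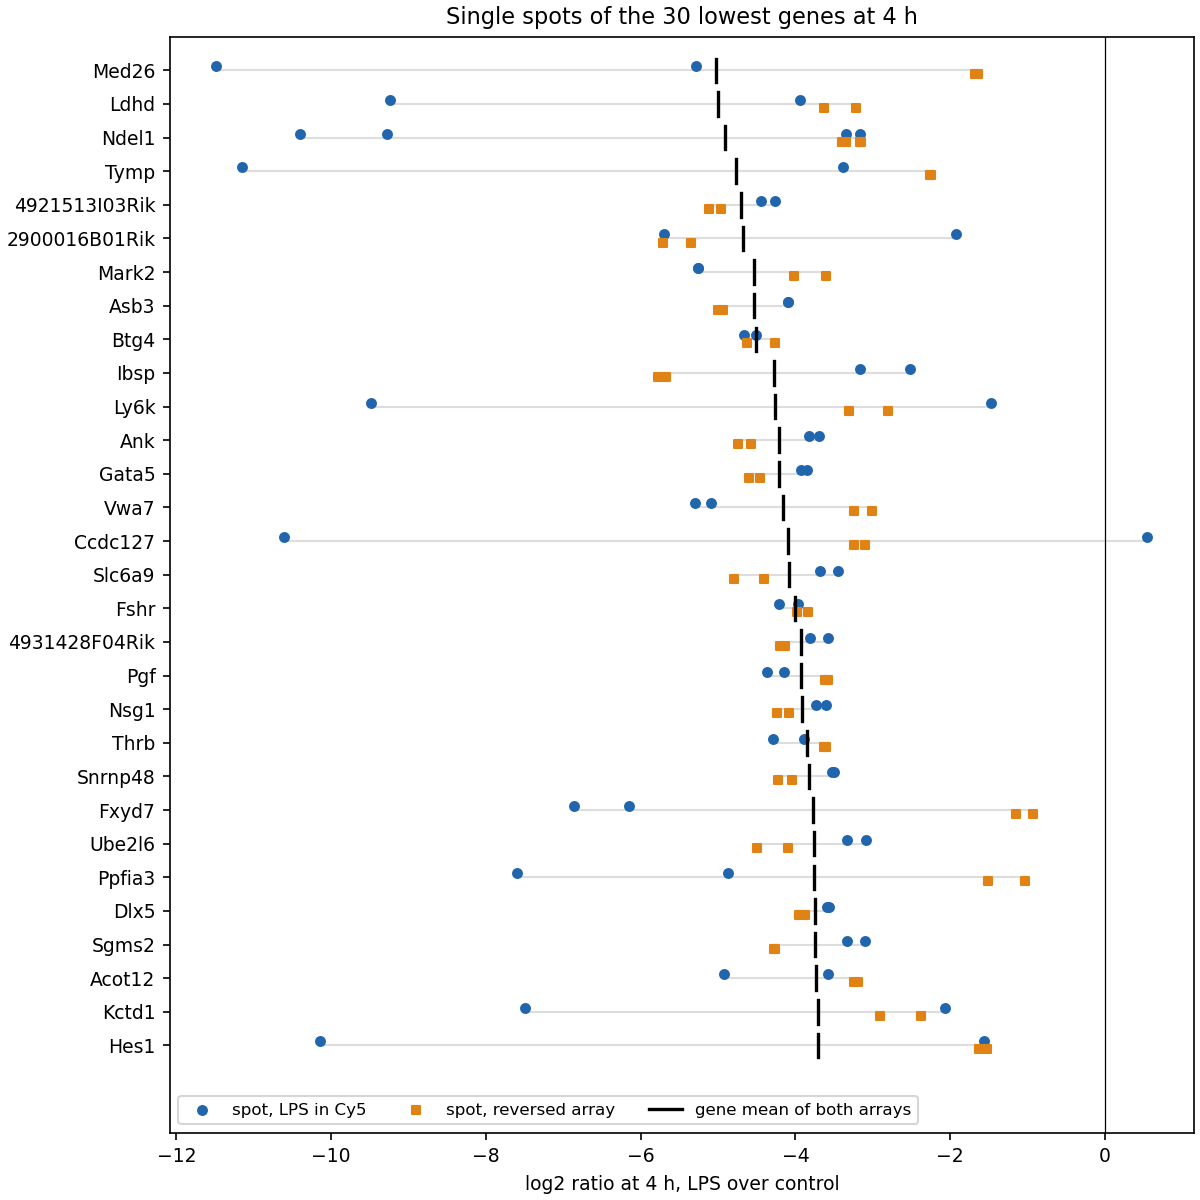
Single-spot log2 ratios at 4 h for the 30 genes with the lowest means; circles are spots on the array with LPS in Cy5, squares spots on the reversed array, and black bars the gene's mean. In genes such as Btg4, Fshr and Gata5 all spots lie close together, whereas in Med26, Tymp and Ccdc127 a single spot near -11 pulls the mean down.

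Of the 147 genes, 140 were measured with 1 oligonucleotide and 7 with 2. Ndel1 was low on both of its oligonucleotides, with 4 h means of -3.25 and -6.56, and so was Klk1b26, a kallikrein protease, at -2.35 and -1.95. Clasp2, which stabilises microtubule ends, gave -1.63 and -2.76, and Cul5, the scaffold of SOCS-box ubiquitin ligases, -1.54 and -2.89. In both genes the weaker mean rested on 1 spot of the reversed array. In Clasp2 that spot was at -4.70, beside values from -0.69 to -0.53. In Cul5 it was at -4.96, beside values from -0.83 to -0.06. In the other 3 genes the oligonucleotides were far apart. Pcgf5, a Polycomb component, gave -3.97 and -0.10, Cox7a1, a cytochrome oxidase subunit, -4.08 and -0.27, and Atl3, a protein that shapes the endoplasmic reticulum, -5.14 and -0.10. Which transcripts each oligonucleotide detects was not examined.

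Receptors and ligands made up 19 genes, and several act in vessel growth or leukocyte traffic. Pgf, placental growth factor, a ligand of the VEGF family, lay at -4.26 and -3.60 at 4 h and at -0.64 and 0.97 at 24 h. Its 4 spots at 4 h ran only from -4.36 to -3.58. Notch1, the receptor that sets cell fates by contact between neighbours and patterns vessel sprouts, lay at -3.06 and -2.17 at 4 h and at -0.42 and 0.55 at 24 h. The spots of Notch1 agreed within each array, at -3.09 and -3.04 and at -2.10 and -2.24. Cxcr2, the receptor of neutrophil-attracting chemokines, lay at -3.21 and -3.11 and then at -0.14 and 0.24. Wnt10b, a Wnt ligand, lay at -3.63 and -3.23 and then at -0.17 and 0.64. All 4 genes were far below 0 on both 4 h arrays and straddled 0 at 24 h.

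Other members of that class are known from tissues other than endothelium. Fshr, the receptor for follicle-stimulating hormone in gonads, lay at -4.09 and -3.91, with all spots between -4.21 and -3.84. Gabra2, a subunit of the GABA receptor of neurons, had a mean of -3.52, Klrc2, an activating receptor of natural killer cells, -3.37, and Nfam1, an immune receptor with a signalling motif, -3.46 with 1 spot at -9.23. Ly6k and Gml, members of the Ly6 family of small surface proteins, had means of -4.26 and -2.12. They were the only 2 of the 147 genes that follow each other directly in the order of protein-coding genes in the RefSeq table of GRCm38.p6. Ang2 (-2.99), an angiogenin-type ribonuclease, Enho (-2.81), the precursor of the peptide adropin, Mxra8 (-2.59), Gpc6 (-2.49), a cell-surface heparan sulfate carrier, Lrrn1 (-2.42), Lmbr1l (-2.42), Ifna4 (-2.23), a type I interferon, Upk1a (-2.17), a urothelial plaque protein, and the T cell receptor locus Tcra (-2.05) completed the class. Ifna4 belongs to a family of near-identical genes that a probe may not separate, and Enho had a spot at a ratio of exactly 1.

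Transcription and chromatin regulators made up another 19 genes, with a median 4 h ratio of -3.18. Beside Med26, the lowest was Gata5, a zinc finger factor of heart and endocardium, at -3.89 and -4.53 (-4.21 ± 0.45), with 24 h arrays at -0.65 and -0.36. Thrb, a thyroid hormone receptor, lay at -4.09 and -3.62 (-3.86), with 24 h arrays at -0.20 and -0.10. Dlx5, a homeobox factor of bone and craniofacial development, lay at -3.58 and -3.91 (-3.75). The arrays of these 3 genes differed by less than 1 log2 unit. Hes1, the repressor that Notch signalling induces, had a mean of -3.71 that rests on 1 spot: its spots were -1.56 and -10.15 on the first array and -1.52 and -1.62 on the reversed one. Without that spot all values of Hes1 are near -1.6.

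Among the other regulators were further developmental factors. Kctd1, a repressor of AP-2 factors, had a mean of -3.71, Mamld1, a mastermind-like protein, -3.39, Prdm16, which directs brown fat fate, -3.20, and Arid3a, a B cell factor, -3.18. Dppa2, a gene of pluripotent cells, lay at -2.56, the cardiac homeobox factor Nkx2-5 at -2.497, Taf13, a subunit of the basal factor TFIID, at -2.25, and Gzf1 at -2.24. Pou2f2, the lymphoid octamer factor, followed at -2.22, the homeobox factor Tlx3 at -2.15, Ikzf4 of the Ikaros family at -2.11, and Nr0b2, the nuclear receptor that represses bile acid synthesis, at -2.06. At 24 h, 8 of the 19 were below 0 on both arrays, beside 25.6% of all genes. Above 0 on both was 1, Prdm16 at 0.35, beside 30.3% of all genes. Its spots on the reversed 24 h array disagreed in sign, at -1.78 and 2.32.

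Intracellular signalling genes beside Mark2 included kinases of pathways that LPS engages. Mapk8, which encodes the stress kinase JNK1, lay at -1.83 and -2.40 at 4 h and at -0.33 and 0.46 at 24 h. Jak3, the kinase of cytokine receptors that use the common gamma chain, lay at -2.92 and -2.34 and then at -0.62 and 0.23. Sufu, the inhibitor of Gli factors in Hedgehog signalling, lay at -2.45 and -2.33 and then at 0.64 and -0.04. The remaining genes were Ptp4a2 (-2.68), a membrane-bound phosphatase, Castor2 (-2.41), of the arginine-sensing branch of mTORC1 control, Cdk5r2 (-2.38), an activator of Cdk5, Cib1 (-2.36), a calcium-binding protein, Sh2d6 (-2.20), Csnk1d (-2.09), Naip6 (-2.06), of the inflammasome receptor family, Gng3 (-2.05), a G protein gamma subunit, and Hpcal1 (-2.05). Mapk8 was the only 1 of 34 measured genes of the mitogen-activated kinase cascade among the 147. At the 2-fold rule, 3 of the 34 were lower, the others being Mapk9 and Map4k1, and 0 were higher. Over all genes the shares were 5.77% lower and 8.74% higher.

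Of 29 measured genes of the Notch pathway, 3 were lower and 2 higher, beside 5.77% and 8.74% of all genes. The list was drawn up after Notch1 and Hes1 had been seen. The third lower gene was Ncstn (-1.21), a subunit of the protease that releases the active part of Notch. The higher ones were Hes5 (2.04), another Notch target, and Adam17 (1.18), a protease of the list. Adam10, the other Adam protease listed, lay at -0.28 and did not pass the rule. The other Notch receptors Notch2, Notch3 and Notch4 lay at 0.30, -0.06 and -0.47, and the ligands Dll4 and Jag1 at -0.44 and -0.20, none of them past the rule.

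Of the metabolic enzymes, 20 genes belonged to the group and several work in mitochondria. Ldhd was the only lower gene of the 4 lactate dehydrogenases. Ldha, the muscle-type subunit of the L-lactate enzyme, was higher at 1.77 ± 0.14, and Ldhb and Ldhc lay at -0.63 and 0.39. The value of Ldha is below the median of 2.06 of the 24 abundant transcripts. Bcat2, which removes the amino group of branched-chain amino acids, lay at -3.24 and -3.77, and Bckdhb, a subunit of the dehydrogenase that acts next, at -2.17 and -2.86. Of 14 measured genes of that breakdown route, listed once these had been seen, Bcat2 and Bckdhb were the only lower ones and Hibadh, a later enzyme of valine breakdown, was higher at 3.16; Bckdha, the partner of Bckdhb, lay at -0.22. Of 14 genes of pyrimidine salvage and synthesis, 4 were lower, namely Tymp with Uck1 (-1.73), Upp1 (-1.61) and Uck2 (-1.33), and 3 were higher, Dut (3.79), Cad (2.50) and Tyms (1.12). The other 7 did not pass the rule and lay between -0.91 (Umps) and 0.28 (Tk2). Over all genes the shares were 5.77% lower and 8.74% higher.

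Lipid and sulfate metabolism supplied several of the other enzymes. Sgms2, a sphingomyelin synthase, had a mean of -3.75, Acot12, an acyl-CoA thioesterase, -3.73, the lipoprotein component Apoc1 -3.61 and Papss2, which makes the sulfate donor, -3.33. Cyp7b1, an oxysterol hydroxylase, lay at -2.75, Entpd5 at -2.65, Fmo1, a flavin monooxygenase, at -2.32, and B3gat3 and Chst4, enzymes of glycan chains, at -2.31 and -2.22. The steroid dehydrogenase Hsd3b2 lay at -2.15 and the lactonase Pon1 at -2.02. Nox4, the oxidase that makes hydrogen peroxide in endothelial cells, lay at -1.68 and -2.34 at 4 h and at -0.84 and -0.87 at 24 h, and so was below 0 on all 4 arrays. Ogfod2 (-3.32), Mettl7b (-2.45), Pdxdc1 (-2.33) and Cox7a1 (-2.18) completed the enzymes, and the spots of Pdxdc1 reached from -5.87 to 1.29.

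Genes for RNA processing and translation numbered 10. Snrnp48, a protein of the minor spliceosome, lay at -3.52 and -4.13 at 4 h and at 0.09 and 2.41 at 24 h; of 6 measured minor spliceosome genes it was the only one past 2-fold at 4 h. Srek1ip1 (-3.63) and Plrg1 (-3.45) also serve splicing. Mrrf (-2.84), Mrpl34 (-2.28) and Hars2 (-2.03) serve translation in mitochondria, Cpeb1 (-2.27) binds elements that control polyadenylation, Apobec1 (-2.16) edits apolipoprotein B transcripts, and Thumpd2 lay at -2.02. Of 24 measured Mediator genes, Med26 and Med10 (-1.79) were lower and Med17 (3.13) and Med20 (1.01) higher, beside 5.77% and 8.74% of all genes. None of 7 measured THO and export genes was among the 147 or lower at 4 h, and Ddx39b was higher.

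Ubiquitin and folding genes numbered 8. Ube2l6, the enzyme that passes the interferon-induced modifier ISG15 to its targets, lay at -3.21 and -4.30 at 4 h and at 1.05 and 0.03 at 24 h, so it was below 0 at 4 h and above 0 at 24 h. Pfdn1, a subunit of the prefoldin chaperone, lay at -3.37, Anapc16, of the anaphase-promoting complex, at -2.498, and Ubr2, a ligase of the N-degron pathway, at -2.44. Anapc16 had 1 spot at -6.96 beside values from -1.06 to -0.99, and the spots of Ubr2 ran from -5.17 to 0.00. Naa60, an N-terminal acetyltransferase, lay at -2.35, and Aup1, of degradation at the endoplasmic reticulum, at -2.01. Of 10 measured Asb genes, Asb3 was lower, and Asb9 (1.81) and Asb8 (1.53) were higher, beside 5.77% and 8.74% of all genes.

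Transporters and channels numbered 11. Ank, which exports pyrophosphate, lay at -3.76 and -4.66, and Slc6a9, a glycine transporter, at -3.57 and -4.60. Fxyd7, a regulator of the sodium pump, lay at -6.51 and -1.04 at 4 h and at 0.36 and 1.55 at 24 h. Slc15a2 (-3.49) carries peptides, Slc30a1 (-2.55) exports zinc, Slc38a3 (-2.32) carries glutamine and Slc25a10 (-2.23) dicarboxylates across the mitochondrial membrane. Vma21 (-2.83) assembles the proton pump of vesicles, and Trpc5 (-2.05), Pkd1 (-2.04) and Atp9a (-2.04) lay near the bound. Solute carriers made up 3.40% of the 147 genes and 1.71% of all genes measured. Over their 191 genes, 18 were lower and 14 higher by the 2-fold rule, beside 5.77% and 8.74% of all genes.

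Cytoskeleton, motor and cilium genes numbered 9. Of 17 measured genes of dynein and its regulators, Ndel1 was the only lower one, while 4 were higher, among them its partner Pafah1b1 (1.31) and the motor's heavy chain Dync1h1 (1.32). Ift122 and Ift88, which move cargo inside cilia, lay at -2.13 and -2.04, and Ift27, of the same 11 measured genes, was higher at 1.49; that list was drawn up after the 2 genes had been seen. Lima1 (-2.49), an actin-bundling protein, Kif1a (-2.33), a neuronal kinesin, Parvb (-2.23), which ties integrins to actin, Lmnb2 (-2.18), a lamin of the nuclear envelope, and Septin1 (-2.15) were the others. Vesicle traffic supplied 11 genes: Nsg1 (-3.91), Ppfia3 (-3.75), Tbc1d8 (-3.23), Borcs8 (-3.06), Atl3 (-2.62), Rab3c (-2.43), Sgsm1 (-2.39), Retreg1 (-2.36), Rab3d (-2.29), Doc2b (-2.13) and Itsn2 (-2.06). Rab3c, Rab3d and Doc2b act in regulated secretion, and Retreg1 in autophagy of the endoplasmic reticulum.

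Matrix proteins and extracellular proteases numbered 9. Ibsp, bone sialoprotein, lay at -2.84 and -5.73 (-4.28 ± 2.04), Emilin1, a glycoprotein of elastic fibres in vessel walls, at -4.70 and -1.15, and Col4a3, a chain of basement membrane collagen, at -1.64 and -2.56. P3h1 (-2.62) hydroxylates collagen chains, Cma2 (-2.91) is a mast cell chymase, Mep1b (-2.20) a meprin protease, Tecta (-2.05) a protein of the inner ear and Lce1c (-2.01) one of the skin's cornified envelope. Mus81 (-2.80) and Neil1 (-2.23) repair DNA, and Eepd1 lay at -2.45. Tex11 (-2.69), a meiosis gene, Spata48 (-2.79) and Wbp2nl (-2.68) are known from germ cells. The remaining 12 genes were 5 uncharacterised clones, the lowest of them 4921513I03Rik (-4.70) and 2900016B01Rik (-4.67), with Vwa7 (-4.16), Ccdc127 (-4.10), Ankrd45 (-3.22), Spi1-6 (-3.08), Ttc9b (-2.06), Wdr89 (-2.02) and Fam98c (-2.01). The clones 4931428F04Rik, 2410002F23Rik and 2810489J07Rik lay at -3.93, -3.33 and -2.10. Uncharacterised clones made up 3.40% of the 147 genes and 3.82% of all genes. By gene symbol, none of the 147 was an olfactory or vomeronasal receptor (of 113 measured), a keratin (67), a Hox gene (32), an orphan Gpr receptor (30), a Ppp, Ptpn or Ptpr phosphatase (74), a Usp protease (26) or an Rnf or Trim ligase (71). Zfp genes (107), the Kcn, Scn, Cacn, Trp, Clcn and Hcn channels (107) and Cyp genes (59) had 1 each. Of all genes only 1.35% met the 4 h bounds, so such small classes say little by these counts. Of the classes without a member, 6 olfactory or vomeronasal receptors, 5 keratins, 1 Hox gene and 1 orphan Gpr receptor were lower by the 2-fold rule. So were 3 phosphatases, 3 Usp proteases and 2 Rnf or Trim ligases, beside 5.77% of all genes. These symbol classes do not take in Ptp4a2, a phosphatase, or Gabra2, a subunit of a receptor channel.

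**Figure D3:**
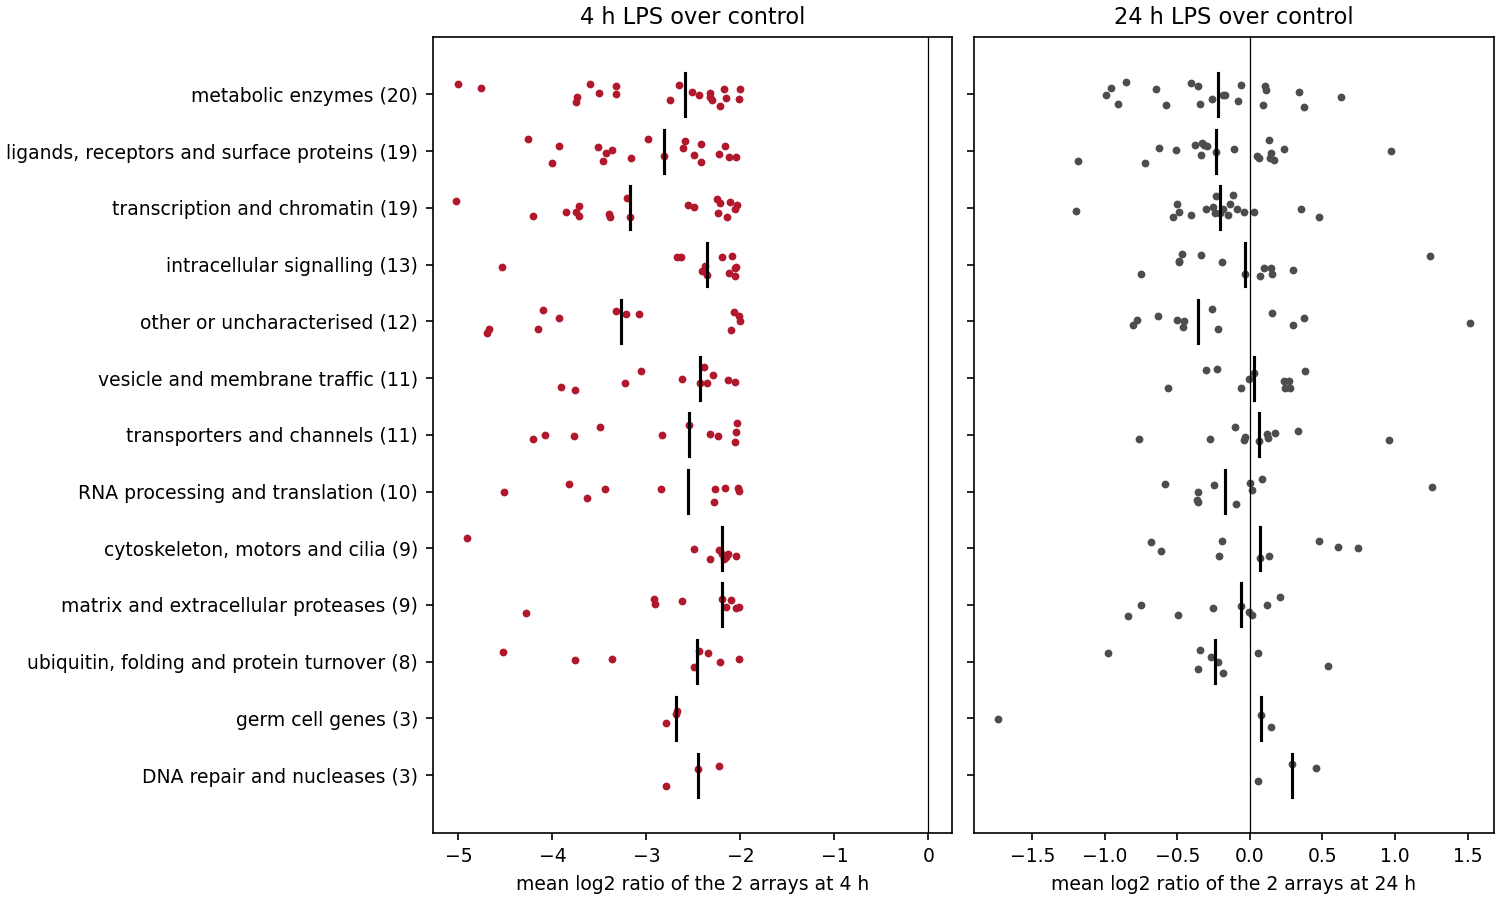
Mean log2 ratios at 4 h (left) and 24 h (right) of the 147 genes by functional class, with the number of genes in brackets; each point is 1 gene and each black bar the class median. At 4 h the classes overlap throughout below the bound of -2, and at 24 h every class lies around 0.

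Promoter windows are shown for 4 of the genes, 3 because they were among the lowest at 4 h and hold the E-box letters CACGTG, and Vma21 because it was the only gene of the group whose window holds GGGACTTTC, the greater part of the classical kB element bound by NF-kB. Each window runs from 250 bases before to 50 bases after a transcript start in RefSeq, build GRCm38.p6, 5′ to 3′ on the gene's strand; capitals mark the match, searched on both strands. Ldhd lies at chr8:111630287-111630586 and Ndel1 at chr11:68853086-68853385. Gata5 lies at chr2:180334630-180334929, like the former 2 on the minus strand, and Vma21 at chrX:71816508-71816807 on the plus strand.
Ldhd: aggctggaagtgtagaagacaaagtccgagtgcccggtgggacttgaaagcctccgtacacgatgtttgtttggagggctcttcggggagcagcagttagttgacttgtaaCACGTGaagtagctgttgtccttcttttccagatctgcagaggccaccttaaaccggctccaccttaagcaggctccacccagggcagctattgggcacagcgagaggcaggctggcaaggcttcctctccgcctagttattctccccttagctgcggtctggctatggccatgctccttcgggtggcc
Ndel1: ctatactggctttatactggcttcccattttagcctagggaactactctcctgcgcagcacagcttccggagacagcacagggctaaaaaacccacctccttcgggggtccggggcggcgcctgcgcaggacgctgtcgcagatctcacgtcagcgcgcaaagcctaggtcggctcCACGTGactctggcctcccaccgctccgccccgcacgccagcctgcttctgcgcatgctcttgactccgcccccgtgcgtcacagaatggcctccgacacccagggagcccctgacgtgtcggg
Gata5: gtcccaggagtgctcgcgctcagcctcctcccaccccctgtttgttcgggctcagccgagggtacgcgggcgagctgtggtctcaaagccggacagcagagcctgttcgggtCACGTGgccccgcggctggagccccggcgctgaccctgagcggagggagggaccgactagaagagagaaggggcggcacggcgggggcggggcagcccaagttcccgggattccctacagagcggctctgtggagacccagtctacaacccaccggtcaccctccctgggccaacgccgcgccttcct
Vma21: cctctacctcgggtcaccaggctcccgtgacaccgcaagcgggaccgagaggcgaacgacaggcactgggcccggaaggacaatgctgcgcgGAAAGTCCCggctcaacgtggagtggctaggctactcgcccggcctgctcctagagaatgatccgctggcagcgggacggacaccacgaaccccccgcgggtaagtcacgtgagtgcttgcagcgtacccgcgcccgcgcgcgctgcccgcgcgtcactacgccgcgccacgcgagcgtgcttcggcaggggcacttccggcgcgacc
The E-box was present in 7.15% of all 32851 promoter windows and GGGACTTTC in 0.353%. Windows were found for 111 of the 147 genes (75.5%), too few for a comparison of shares between the group and all genes, so that comparison is void. The E-box is its own reverse complement and began at position -139 from the start in Ldhd, -74 in Ndel1 and -138 in Gata5. The kB letters of Vma21 lay on the opposite strand at position -158. The window of Vma21 also holds the E-box letters, printed there in lower case because capitals mark only its kB match. A match is a description of the letters and not of a bound site.

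At 24 h the 147 genes lay close to the array's median. Their median ratio was -0.14, with quartiles at -0.37 and 0.13, against 0.02 for all genes and 0.24 for the 353 genes strongly higher at 4 h. By array, the median was -0.14 on the first array and -0.06 on the second, and all genes had 0.00 and 0.03 there. Less than 1.5-fold from control were 119 of the genes (81.0%), beside 80.6% of all genes. Below 0 on both 24 h arrays were 52 of the 147 (35.4%), against 25.6% of all genes, and above 0 on both were 28 (19.0%), against 30.3%. The group's median was thus slightly below that of all genes. The labels do not tell if 1 control RNA served both times, and this difference was not tested. Chosen on the first 4 h array alone, 310 genes had a 24 h median of -0.11, and chosen on the reversed array alone, 321 genes had 0.00, so the difference was nearly absent without the first 4 h array.

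The lower 24 h median was shared with genes whose spots were low at 4 h in general. Every 4 h spot was at or below -1 in 298 genes, 123 of them in the group. The 298 had a 24 h median of -0.20 with 44.0% below 0 on both arrays, and the 123 had -0.17 with 39.0% (48 genes) below and 22 above. Every 4 h spot was below 0 in 2187 genes, with a 24 h median of -0.08 and 35.4% below 0 on both 24 h arrays, and in 134 genes of the group, with -0.13 and 36.6%. Beside genes filtered by the first of these bounds, the group was therefore no lower at 24 h. Among the other 24 genes of the group the median was 0.03, with 4 below and 6 above. The 24 abundant transcripts had a median ratio of 2.06 at 4 h and of 0.08 at 24 h. Centring on them lowers every 4 h value by construction, so it cannot turn the sign of any of the 147 genes. With this centring the rule kept 5793 genes, so the size of the group depends on where 0 is set.

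**Figure D4:**
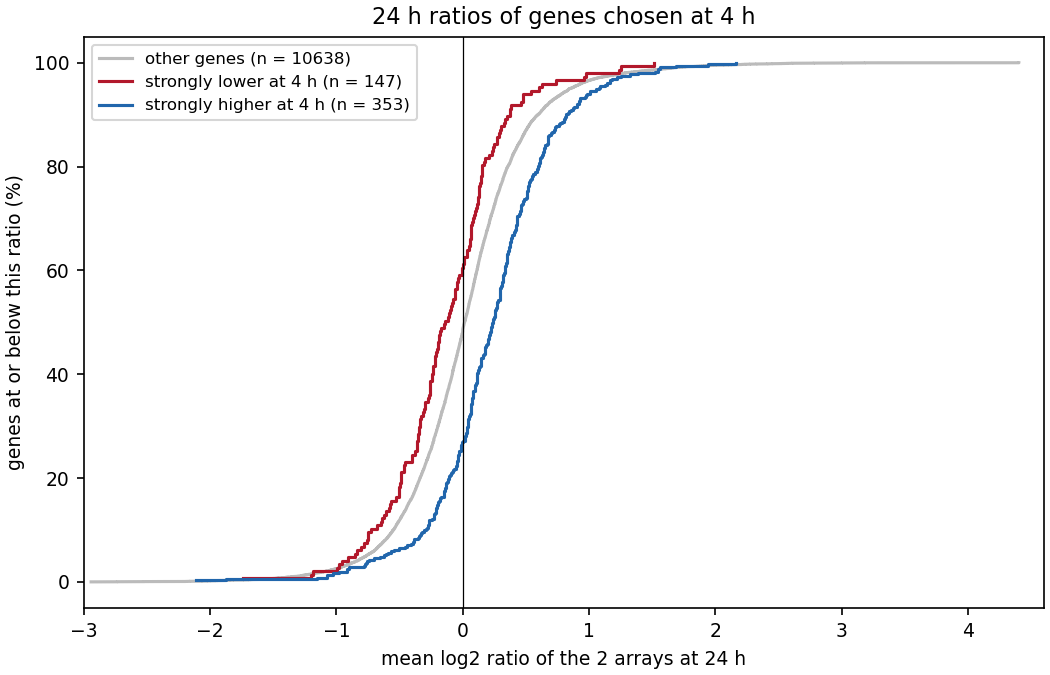
Cumulative share of genes (vertical, percent) against the 24 h mean log2 ratio (horizontal) for the 147 genes strongly lower at 4 h (red), the 353 strongly higher at 4 h (blue) and all others (grey). Over the middle of the range the red curve runs left of the grey one and the blue one right of it, with medians of -0.14 and 0.24.

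Few of the genes were past 2-fold at 24 h. By the 2-fold rule 2 of the 147 were lower (1.36%, against 0.799% of all genes) and 1 was higher (0.680%, against 1.68%), shares that rest on 3 genes. On the first 24 h array alone 23 of the 147 were at least 2-fold lower, beside 7.34% of all genes, and 3 higher, beside 4.51%. On the reversed array alone 5 were lower, beside 2.78% of all genes, and 6 higher, beside 6.92%. Upk1a was lower at both times, with 4 h arrays at -2.58 and -1.76 and 24 h arrays at -1.66 and -0.71, and its 24 h spots were -1.27, -2.04, -0.11 and -1.32. Gzf1, the other lower gene, had 24 h arrays at -1.13 and -1.27, but its spots lay at -0.07 and -2.19 on the first and at -2.89 and 0.34 on the reversed array. Csnk1d, a casein kinase that tunes the circadian clock, was the higher gene, with 24 h arrays at 0.65 and 1.83. Its spots also disagreed, at -4.12 and -0.01 on the first and 1.0 and -5.21 on the reversed 4 h array, and at 24 h the first spot stood at a ratio of exactly 1 on both arrays while the second gave 1.30 and 3.66. Of these 3 genes, Upk1a alone kept 1 sign over all 8 of its spot values.

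The lowest 24 h means of the group belonged to Tex11 (-1.74, arrays at -3.22 and -0.25), Gzf1 (-1.20), Upk1a (-1.19), Acot12 (-0.99) and Ubr2 (-0.98). The value of Tex11 came from 1 spot at -6.10 beside 3 between -0.36 and -0.14. That of Ubr2, with arrays at 0.00 and -1.96, came from 1 spot at -3.92, its other spots standing at a ratio of exactly 1. Acot12 was lower on all 4 arrays, at -4.25 and -3.21 and then at -1.18 and -0.80. Others below -0.8 were Sgms2 (-0.96), Pdxdc1 (-0.91), Nox4 (-0.86), Tecta (-0.84) and Vwa7 (-0.81). In Pdxdc1 1 spot at -4.67 stood beside others from 0.25 to 0.50, and in Sgms2 1 at -2.82 beside others from -0.45 to -0.23. The highest were Fam98c (1.52, arrays at 0.00 and 3.04), Snrnp48 (1.25, arrays at 0.09 and 2.41), Csnk1d (1.24), Mxra8 (0.97, arrays at 0.25 and 1.70) and Fxyd7 (0.96). In Fam98c, Snrnp48, Mxra8, Csnk1d and Fxyd7 the reversed array supplied most of the value. The value of Snrnp48 came from 1 spot at 4.82 there, beside 0.19 and 2 spots at a ratio of exactly 1.

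By functional class, the 24 h medians ran from -0.36 for the uncharacterised genes to 0.29 for the 3 DNA repair genes. Transcription regulators had -0.20, receptors and ligands -0.23, metabolic enzymes -0.22 and ubiquitin genes -0.24, while transporters had 0.07, cytoskeleton genes 0.07 and vesicle traffic genes 0.03. Of the receptors and ligands, 16 of 19 were lower on the first 24 h array than on the reversed one, beside 61.2% of the 147 and 55.1% of all genes. The class medians were -0.40 and 0.01, so the class value differs between the arrays by more than its distance from 0. Of the vesicle traffic genes, all 11 lay within 1.5-fold of control at 24 h, as did 80.6% of all genes.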

How the data were processed

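Per the labels, amplified RNA of LPS-treated and control SVEC cells was hybridised in 2 colours to 4 long-oligonucleotide arrays. The deposited values are log2 ratios, a unit read from the values; what scanner, background correction and normalization the authors used is not given in the sources used here. Each array has 32448 spots, of which 24344 have 1 gene symbol, 98 several and 8006 none; the last 2 kinds were left out. The reversed arrays were sign-turned, each array was centred on its median, and the spots of a gene were averaged. Across genes, the turned arrays of a time correlated at 0.48 (4 h) and 0.10 (24 h). Intensities were not used here, so signal over background is unknown; the number of arrays and the disagreement of single spots limit precision. No significance test was run. The members and the gene lists were chosen with earlier results of these data known, and roles, motifs and the split by spots after the values were seen. Genes were named as the 20 lowest, those at the bound and at the 24 h extremes, and by class and list; the remaining members are given by their means. Alternatives covered centring, scaling, spot summaries, thresholds and arrays. Only the 4 h rule was tested on simulated spots, with normally distributed noise and without the exact zeros and far-apart spots of the real arrays. The 24 h counts, lists and motif search were not simulated. Python 3.11.15, pandas 2.3.3, NumPy 2.4.6 and matplotlib 3.10.9 were used.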

Additional observations from a re-analysis of the deposited data

Results flagged for a closer look

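Of the 147 genes, 28 (19.0%) were above 0 on both 24 h arrays while they lay below 0 on both 4 h arrays, so their sign differed between the times; the difference was not tested. The share is below the 30.3% of all genes that were above 0 on both 24 h arrays. The sign is that of a gene's array means and not of every spot. On the reversed 24 h array the spots of Prdm16 were -1.78 and 2.32 and those of Tbc1d8 1.34 and -0.48, and Klk1b26 had a spot at -0.82. The 24 h mean log2 ratios were largest for Snrnp48 (1.25), Csnk1d (1.24), Mxra8 (0.97), Fxyd7 (0.96) and Parvb (0.74), though that of Snrnp48 came from 1 spot at 4.82. In the second tier were B3gat3 (0.63), Ube2l6 (0.54), Lmnb2 (0.47), Neil1 (0.46) and Tbc1d8 (0.38). A further set comprised 2900016B01Rik (0.37), Entpd5 (0.37), Prdm16 (0.35), Slc25a10 (0.33), Rab3c (0.27), Retreg1 (0.24), Klk1b26 (0.20), Slc6a9 (0.17) and Ccdc127 (0.15). The smallest values, near the array's median, were those of Gml (0.14), Gpc6 (0.14), Slc30a1 (0.13), Col4a3 (0.12), Bckdhb (0.11), Cpeb1 (0.081), Slc15a2 (0.066), Anapc16 (0.059) and Srek1ip1 (0.014).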

How the results depend on the processing

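Each time was taken as 1 RNA pair, since the labels do not tell if the reversed arrays used other extracts, no intensities were used and the sign convention is only likely; the opposite one would turn every sign. No paired analysis was possible because no result comes from a test. The number of genes strongly lower at 4 h was 287 at a mean bound of -1.5 and 73 at -2.5. It was 19 with the reversed array unturned and 5793 when centred on abundant transcripts. With either 4 h array left out it ran from 310 to 321. With arrays scaled it was 101, and with quantile normalization 100. These 2 settings kept only 68.7% and 67.3% of the genes described here, so membership of the group depends on the normalization. With abundant centring 82 of the 5793 genes were 2-fold lower at 24 h, and 138 of all 11138. Genes lower at 24 h otherwise numbered 5 at -1.5, 0 at -2.5 and 1 with every spot below 0. With every spot at most -1 (chosen after seeing the data) there was 1, and 4 with the 24 h mean bound loosened to 1.5-fold. Genes higher at 24 h numbered 46 of the 5793 with abundant centring, and 144 of all 11138. Otherwise such genes numbered 0 with arrays scaled, 2 with exact zeros not measured, 2 at -1.5 and 0 at -2.5. Under either spot bound there were 0, and by the mean alone 3. Without 1 array these counts ran from 4 to 23 lower, the highest without the reversed 24 h array, and from 2 to 6 higher, the highest without the first 24 h array. The 24 h median ran from -0.1437 to 0.0000 without 1 array, the latter without the 4 h array with LPS in Cy5, and from -0.1836 to -0.0867 under the other alternatives. Genes below 0 on both 24 h arrays numbered 2356 with abundant centring, 33 with scaling, 33 with quantile normalization, 114 at -1.5 and 25 at -2.5, and 87 and 103 without 1 of the 4 h arrays; with a single 24 h array, 81 and 88 were below 0 on it. The cause was not tested; abundant centring and looser bounds keep more genes by construction. Of 161 single-gene values under other settings, none reversed and 28 moved by more than the SD between the gene's arrays. Several settings could not turn a sign: the deposited medians were already 0, scaling keeps signs, and abundant centring lowers 4 h values. The SD bound is wide where arrays disagree. Med26 at -7.07 with abundant centring did not count as moved (SD 4.76), while Btg4 at -4.11 with scaling did (SD 0.10). With 1 array left out, 22 of 46 values changed by over 1.5-fold, among them Med26 (-1.66 and -8.39) and Tymp (-2.25 and -7.27). None of the 46 reversed, which was fixed in advance. The genes had been chosen by rules that ask for the same sign on each array.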
